A study of Mus musculus with 12 samples.

Results

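The autophagosome and lysosome genes described here are 36 mouse genes listed by name, for autophagosome formation and cargo receptors on one side and for lysosomal enzymes and membrane genes controlled by TFEB on the other. The list sets no threshold on a measured value, but it was drawn up with earlier results of these data known. All 36 were found among the 21751 genes and loci of one expression table and among the 24054 genes of the other, and all 36 passed the filter on low values in both. By role they are 9 genes of initiation and nucleation (Ulk1, Ulk2, Rb1cc1, Atg13, Becn1, Atg14, Uvrag, Wipi1 and Wipi2) and 9 of conjugation and the ATG8 family (Atg3, Atg5, Atg7, Atg12, Atg16l1, Map1lc3a, Map1lc3b, Gabarap and Gabarapl1). There are 3 cargo receptors (Sqstm1, Nbr1 and Optn) and 2 transcription factors (Tfeb and Tfe3). The lysosome is covered by 8 genes of enzymes and lipid handling (Ctsa, Ctsb, Ctsd, Ctsl, Gla, Hexa, Lipa and Npc2) and 5 of its membrane (Lamp1, Lamp2, Mcoln1, Atp6v1h and Npc1). The first 3 roles, 21 genes, are called autophagosome genes below, and the last 2 roles, 13 genes, lysosome genes.

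The study sequenced RNA of liver tumours from 12 samples in 4 groups of 3. Miz1 knockout tumours came from Miz1 fl/fl mice carrying Alb-Cre, and their controls, called floxed, from Miz1 fl/fl mice without Cre. Miz1(POZ) knockout tumours came from Miz1(POZ) fl/fl mice carrying Alb-Cre, and their controls from Miz1(POZ) fl/fl mice without Cre. The gene Zbtb17 codes for Miz1, a transcription factor with zinc fingers and a POZ domain that mediates protein contacts. Mice of all 4 groups were C57BL/6, were given the carcinogen diethylnitrosamine (25 mg/kg) at week 2 and then the liver toxin carbon tetrachloride (0.5 ml/kg) each week, and were killed at 5 months, so the controls also carry floxed alleles and chemically induced tumours. Alb-Cre acts in cells that use the albumin promoter, chiefly hepatocytes, and cells of a tumour that never used it keep Miz1. Which cells recombined the allele was not measured here. The labels used here give neither the exons removed nor whether replicates came from separate mice, so the p-values below measure only the spread between these libraries.

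Autophagy encloses part of the cytoplasm in a double membrane, which then fuses with a lysosome. The ULK1 kinase complex starts the process, the Beclin 1 lipid kinase complex nucleates the membrane, and 2 ubiquitin-like conjugation systems attach LC3 and GABARAP proteins (the ATG8 family) to it. Receptors such as p62, the product of Sqstm1, tether cargo to these proteins, and cathepsins, lipases and glycosidases degrade it in the lysosome. TFEB and TFE3 activate lysosomal genes through a DNA element known as CLEAR, built on the E-box CACGTG. In liver, autophagy turns over lipid droplets, mitochondria and protein aggregates, and its loss in mouse hepatocytes leads to accumulation of p62.

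The 2 tables differ in unit, so each knockout was compared only with its own floxed libraries. Values of the Miz1 table are size-factor-normalised reads, and 5 of its libraries held 30151743 to 76122969 reads in genes. Values of the Miz1(POZ) table are FPKM (fragments scaled by transcript length and by library size), whose depth is unknown. The targeted gene Zbtb17 had 261, 271 and 267 normalised reads in Miz1 knockout tumours, against 323, 306 and 302 in floxed tumours, without overlap; the log2 fold change of -0.22 (SE 0.14) did not pass the test (limma, adjusted p 0.9998 after Benjamini-Hochberg). In Miz1(POZ) knockout tumours it had 2.55, 2.60 and 1.95 FPKM, against 2.03, 2.46 and 1.82 FPKM in floxed tumours, and the groups overlapped. Hepatocyte markers (8 genes, among them Alb) were abundant in both tables, with summed levels of 3792740 to 4037670 normalised reads in Miz1 knockout tumours against 2381480 to 6181220 in floxed ones, and 47041 to 83953 FPKM in Miz1(POZ) knockout tumours against 63947 to 106343 FPKM in floxed ones. Some libraries stood apart from the rest of their group. In the Miz1 table floxed replicates 1 and 2 stood apart from each other, and knockout replicate 1 was high in markers of cells other than hepatocytes. In the Miz1(POZ) table it was floxed replicate 3.

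FPKM is scaled by length, so levels could be ordered between genes in the Miz1(POZ) table. In floxed tumours the highest member was Lamp1, a heavily glycosylated protein of the lysosomal membrane, at 248 ± 35.1 FPKM (SD, n = 3). It was followed by 2 proteases, Ctsl at 230 ± 3.92 and Ctsd at 200.4 ± 27.8 FPKM, and by Lamp2, a receptor of chaperone-mediated autophagy, at 189 ± 47.5 FPKM. The median was 39.5 FPKM for the 13 lysosome genes and 19.2 FPKM for the 21 autophagosome genes, against 7.59 FPKM for all 11201 genes tested. Among autophagosome genes the order was led by Sqstm1 at 158 ± 28.7 FPKM, Gabarapl1 at 117 ± 54.2 FPKM and Gabarap at 100.1 ± 11.6 FPKM. Initiation genes lay lower, between Atg14 at 5.75 FPKM and Ulk1 at 30.4 FPKM. Tfeb at 3.65 ± 0.133 FPKM and Gla, the alpha-galactosidase A gene, at 1.37 ± 0.238 FPKM closed the order.

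Most neighbours in that order could not be told apart. The ranges of the 3 floxed libraries overlapped for every neighbouring pair except Gabarap and Lipa, Map1lc3b and Nbr1, Nbr1 and Npc1, Atg14 and Tfeb, and Tfeb and Gla. Within a gene, Gabarapl1 varied most among the leading members, with 167, 125 and 59.0 FPKM in the floxed libraries.

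**Figure D1:**
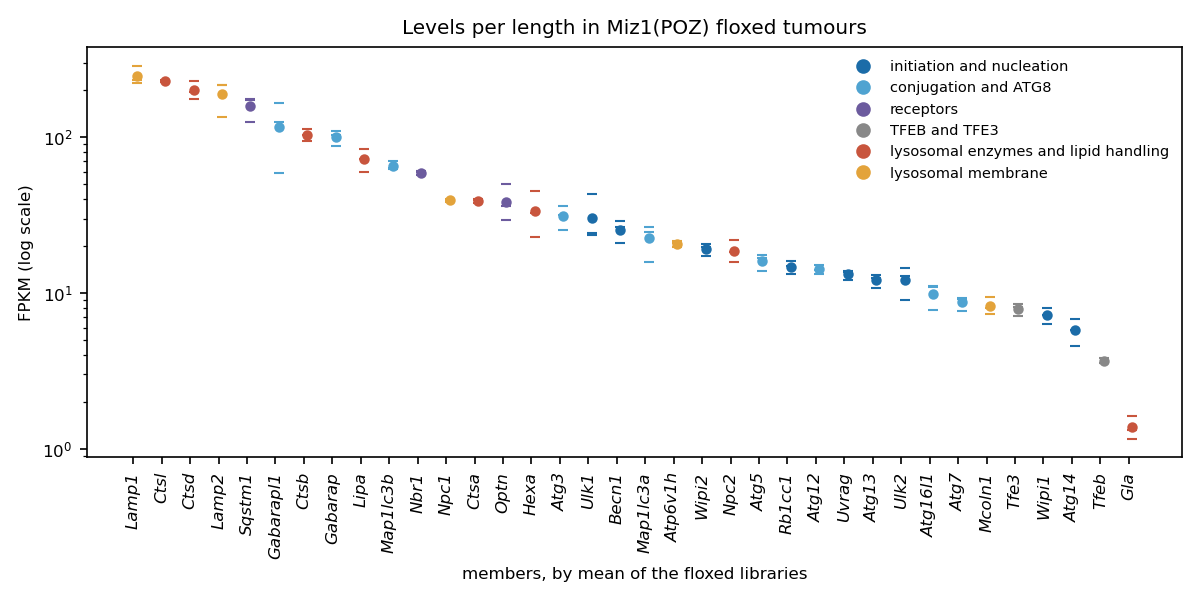
Level of each of the 36 genes in Miz1(POZ) floxed tumours, in FPKM on a log axis, ordered by the mean of 3 libraries (point) with each library as a short line. Lamp1, Ctsl, Ctsd and Lamp2 lie at the top and Tfeb and Gla at the bottom.

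The lysosome genes were listed as TFEB-controlled, and the CLEAR element is the sequence through which TFEB acts, so the shares below describe the list and are no independent finding about it. In RefSeq promoters of GRCm38.p6, which span 250 bases before to 50 after a gene's start, 28 of the 36 genes had an entry. The E-box CACGTG, which reads the same on both strands, was present in 10 of these 28 (35.7%), against 8.09% of the 27025 genes with a promoter entry. It occurred in 6 of 10 lysosome genes (60.0%) and in 4 of 16 autophagosome genes (25.0%). The longer form GTCACGTG, searched on both strands and containing the first motif, was present in 8 of the 28 (28.6%) against 2.55% of all genes. The form with both extensions, GT before the E-box and AC after it, was present in 0 of the 28, against 0.37% of all genes. A match is only a run of letters and was not tied to binding here. The bases after the RefSeq start were found in an annotated transcript of the gene for 21 of the 28, and some RefSeq starts lie inside the gene span of GENCODE, by 27999 bases for Atg7.

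The promoter of Lamp1 held 4 of these E-boxes and is shown for that density; it lies on the plus strand at chr8:13158911-13159160. The promoter of Uvrag, the member that was lower in Miz1(POZ) knockout tumours at an unadjusted p under 0.05, held none and is shown beside it; it lies on the minus strand at chr7:99141145-99141394. Capitals mark the E-box CACGTG and, where present, the bases that extend it to GTCACGTG or its reverse complement.
Lamp1: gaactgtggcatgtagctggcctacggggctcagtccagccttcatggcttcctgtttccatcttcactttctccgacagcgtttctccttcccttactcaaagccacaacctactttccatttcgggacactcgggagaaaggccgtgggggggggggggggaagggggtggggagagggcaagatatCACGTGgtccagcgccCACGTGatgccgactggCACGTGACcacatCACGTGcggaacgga
Uvrag: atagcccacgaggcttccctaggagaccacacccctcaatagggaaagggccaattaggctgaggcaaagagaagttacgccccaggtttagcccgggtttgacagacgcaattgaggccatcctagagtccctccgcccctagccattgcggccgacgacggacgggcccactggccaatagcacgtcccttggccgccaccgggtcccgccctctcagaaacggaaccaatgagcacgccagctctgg

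Short windows around the E-box are given for 6 further genes, so that the flanks of lysosomal and autophagosomal genes can be read side by side; where a promoter held several, 1 is shown. They lie at chr2:164833749-164833776 (Ctsa, plus strand), chr7:142387908-142387935 (Ctsd, minus strand), chr8:3500436-3500463 (Mcoln1, plus strand), chrX:134601184-134601211 (Gla, minus strand), chr13:64370741-64370766 (Ctsl, minus strand) and chr16:45158746-45158773 (Atg3, plus strand). Of these, the window of Ctsl held the E-box without the GT or AC extension, and the other 5 held it with the extension. The RefSeq starts behind the windows of Ctsa, Ctsd and Ctsl lie 900, 211 and 370 bases inside their GENCODE spans. These windows therefore lie within the annotated gene and not before it. The window of Mcoln1 straddles its GENCODE start, at base 3500457.
Ctsa: tgagcaaactGTCACGTGatgcagatgc
Ctsd: gcccgcgtctCACGTGACccgttgaggg
Mcoln1: ggtcgcgcttGTCACGTGttcagttcag
Gla: tgagatctcgGTCACGTGagcaactctc
Ctsl: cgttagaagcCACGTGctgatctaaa
Atg3: ggagagtcgaGTCACGTGaggccttagg

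The first comparison asked whether the 36 genes differed between Miz1 knockout and Miz1 floxed tumours. No member passed the threshold, an adjusted p of 0.05 (limma, Benjamini-Hochberg over all 21751 genes). Fold changes were small, with a median absolute log2 fold change of 0.12 over the members against 0.13 over the 10922 genes at least as high as the lowest member. Lysosome genes were mostly a little higher in the knockout and initiation genes a little lower: 12 of 13 lysosome genes had a positive log2 fold change (median 0.18) and 9 of 9 initiation genes a negative one (median -0.11), against 52.1% positive and a median of 0.01 over all genes. The libraries of both groups overlapped for all members but 1. No member had an unadjusted p under 0.05, against a background of 1.67% of all genes (0.786% higher and 0.887% lower in the knockout), and none had one by edgeR on the reads of 5 libraries. Over all genes the adjusted test called 0, with 364 at an unadjusted p under 0.05, and edgeR also called 0, with 195. The background depends on the fit: with the replicate number as a block (below), 1150 genes had an unadjusted p under 0.05 (limma). The smallest among the members was then 0.050, for Lipa.

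**Figure D2:**
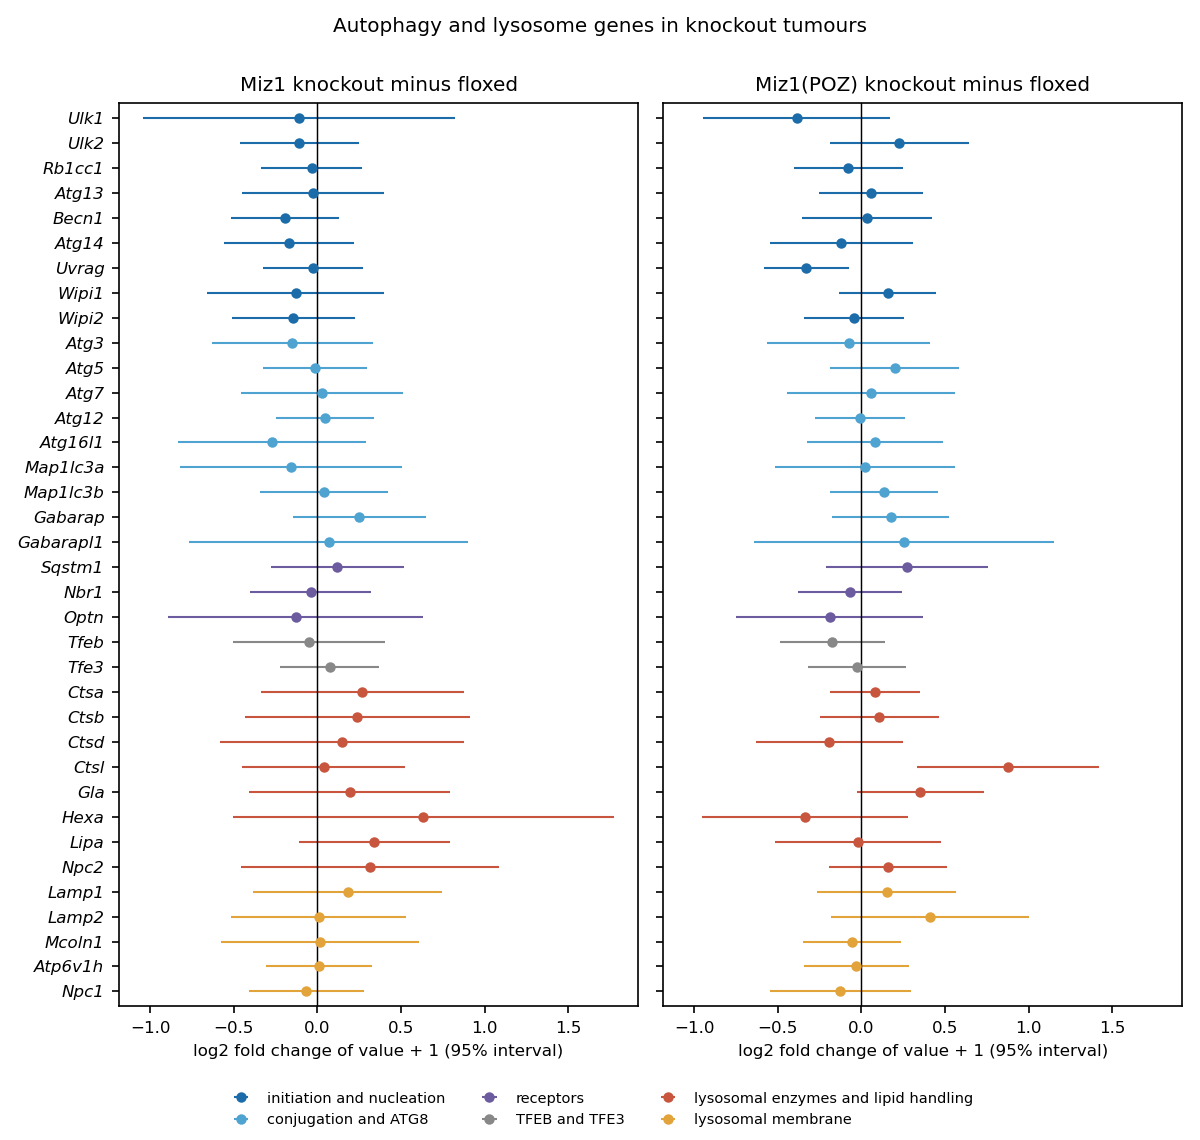
Log2 fold change of each gene, knockout minus floxed, with its 95% interval from limma, for Miz1 (left panel) and Miz1(POZ) tumours (right panel), coloured by role. All Miz1 intervals include 0, and in Miz1(POZ) tumours those of Ctsl and Uvrag do not.

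Among initiation genes, Becn1 was the member whose groups did not overlap in Miz1 tumours. Becn1 encodes Beclin 1, the scaffold of the lipid kinase complex that nucleates the autophagosome. It had 786, 875 and 842 normalised reads in knockout tumours, against 905, 1069 and 897 in floxed tumours. Every knockout library lay below every floxed library, with a gap between 875 in the highest knockout library and 897 in the lowest floxed one. The log2 fold change was -0.19 (SE 0.13), and -0.11 without floxed replicate 2, with an adjusted p of 0.9998 (limma, Benjamini-Hochberg). That is 1 of 36 members without overlap (2.78%), against 5.62% of all genes in either direction, 3.05% lower and 2.57% higher in the knockout. The span of Becn1 overlaps the protein-coding gene Cntd1 on the opposite strand, and the sources used here do not say that counting used strand.

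The kinase gene Ulk1 varied more among floxed tumours than between the groups. It had 6867, 4881 and 4909 normalised reads in Miz1 knockout tumours, against 9227, 3306 and 6798 in floxed tumours. Floxed replicates 1 and 2 enclosed all 3 knockout libraries, and the 95% interval of the log2 fold change ran from -1.04 to 0.82. The log2 fold change was -0.11, but 0.21 without floxed replicate 1 and -0.53 without floxed replicate 2. The other 7 initiation genes, including Rb1cc1, which encodes the ULK1 partner FIP200, and the phosphoinositide-binding Wipi1 and Wipi2, had log2 fold changes of -0.17 to -0.03. The count of 9 lower genes became 6 without knockout replicate 1, 8 without knockout replicate 3, 6 without floxed replicate 1 and 7 without floxed replicate 2.

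The conjugation genes and the ATG8 family were split, with 5 of 9 higher and 4 lower in the Miz1 knockout (a median of 0.03 on the log2 scale). Gabarap, an ATG8 protein, had the highest fold change of them, with 3751, 3915 and 3072 normalised reads in knockout tumours, against 3495, 2743 and 2796 in floxed tumours (log2 fold change 0.25, SE 0.16). Atg16l1, which directs LC3 attachment to the membrane, had the lowest fold change, with 1276, 1342 and 1183 normalised reads in knockout tumours, against 1196, 2159 and 1380 in floxed tumours (log2 fold change -0.27, SE 0.23). Floxed replicate 2 alone lay above all other libraries for Atg16l1, and without it the log2 fold change was -0.02.

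Gabarapl1 and the receptor Optn were low in replicate 1 of both groups in Miz1 tumours. Gabarapl1 had 2428, 4754 and 4770 normalised reads in knockout tumours, against 2653, 4955 and 3639 in floxed tumours. Optn, a receptor for ubiquitinated mitochondria and bacteria, had 1926, 3066 and 3229 in knockout tumours, against 2102, 4234 and 2807 in floxed tumours. The groups overlapped in both genes, and floxed replicate 2 of Optn lay above every knockout library. Without knockout replicate 1 the log2 fold change of Gabarapl1 was 0.39 against 0.07 with all libraries, and that of Optn 0.11 against -0.13. The receptor Sqstm1, whose protein accumulates when autophagy is blocked, had 10613, 10151 and 9839.6 normalised reads in knockout tumours, against 8816, 11236 and 8338 in floxed tumours (log2 fold change 0.12, SE 0.17), and the groups overlapped. Nbr1, a receptor related to p62, had a log2 fold change of -0.04.

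Lysosomal enzymes were the role with the largest median difference in Miz1 tumours: all 8 had a positive log2 fold change (median 0.25), and in each the groups overlapped. With a library left out, 6 to 8 of them were positive, and 6 without knockout replicate 1. Hexa, a subunit of beta-hexosaminidase, had 2705, 2821 and 1948 normalised reads in knockout tumours, against 3071, 801 and 1616 in floxed tumours. The highest and the lowest library were both floxed, and the log2 fold change of 0.63 (SE 0.47) was 0.14 without floxed replicate 2 and 1.11 without floxed replicate 1. Lipa, the lysosomal acid lipase gene, had 7439.8, 6683 and 6487 in knockout tumours, against 6869.6, 4993 and 4634 in floxed tumours (log2 fold change 0.34, SE 0.19). Npc2, which carries cholesterol inside the lysosome, had 2383, 2158 and 1814 in knockout tumours, against 2698, 1133 and 1589.7 in floxed tumours. In Hexa and Npc2 floxed replicate 1 was the highest of the 6 libraries and floxed replicate 2 the lowest, and the log2 fold change of Npc2, 0.31, was 0.02 without floxed replicate 2 and 0.65 without floxed replicate 1.

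For the proteases Ctsb and Ctsd floxed replicate 2 was also the lowest of the 6 libraries, and for Ctsl it was the highest. Ctsb had 15560.1, 11456 and 10668 normalised reads in Miz1 knockout tumours, against 14780.3, 7896 and 9909.6 in floxed tumours. Ctsd had 11531, 9114 and 7606 in knockout tumours, against 12426, 6057 and 7817 in floxed tumours. Without floxed replicate 2 the log2 fold changes of Ctsb and Ctsd were 0.03 and -0.09, against 0.24 and 0.15 with all libraries. Ctsl, which differed most in the other knockout, had 15317, 15379 and 11349.8 in Miz1 knockout tumours, against 12669.5, 16057.5 and 12138.5 in floxed tumours (log2 fold change 0.04). At the lysosomal membrane Lamp1 was highest by fold change, with 16309, 16268 and 13118 in knockout tumours, against 18079.6, 11248 and 11752 in floxed tumours (0.18, SE 0.23). Without floxed replicate 2 the log2 fold change of Lamp1 was 0.06, and without floxed replicate 1 it was 0.40. Lamp2, Mcoln1, a calcium channel, and Atp6v1h, a subunit of the proton pump, had log2 fold changes of at most 0.02, and Npc1, which exports cholesterol, had -0.07. The count of 4 of 5 membrane genes higher became 2 without knockout replicate 2, floxed replicate 1 or floxed replicate 3. It was 3 without knockout replicate 3 and stayed 4 without knockout replicate 1 or floxed replicate 2. By edgeR on 5 libraries, 2 of 5 membrane genes and 7 of 8 enzymes were higher.

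Same-numbered libraries of the Miz1 table deviated together for numbers 1 and 2, and only weakly for number 3. What the numbers mean is not given, so the direction within each number was read as a description. The knockout library was higher in all 3 pairs for Gabarap, Ctsb and Lipa, 3 of 36 members, against 13.3% of all genes, and lower in all 3 for Becn1 and Atg3, 2 of 36, against 14.3%. With the replicate number as a block, Lipa had the smallest unadjusted p of the members, 0.050, and an adjusted p of 0.908 (limma, Benjamini-Hochberg).

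The median of the 13 lysosome genes in Miz1 tumours depended on single libraries. It was 0.07, 0.12 and 0.29 without knockout replicates 1, 2 and 3, and 0.39, 0.09 and 0.10 without floxed replicates 1, 2 and 3. Without floxed replicate 1, Hexa, Lipa and Npc2 had unadjusted p of 0.0198, 0.0131 and 0.0237, and adjusted p of at least 0.70 (limma, Benjamini-Hochberg).

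**Figure D3:**
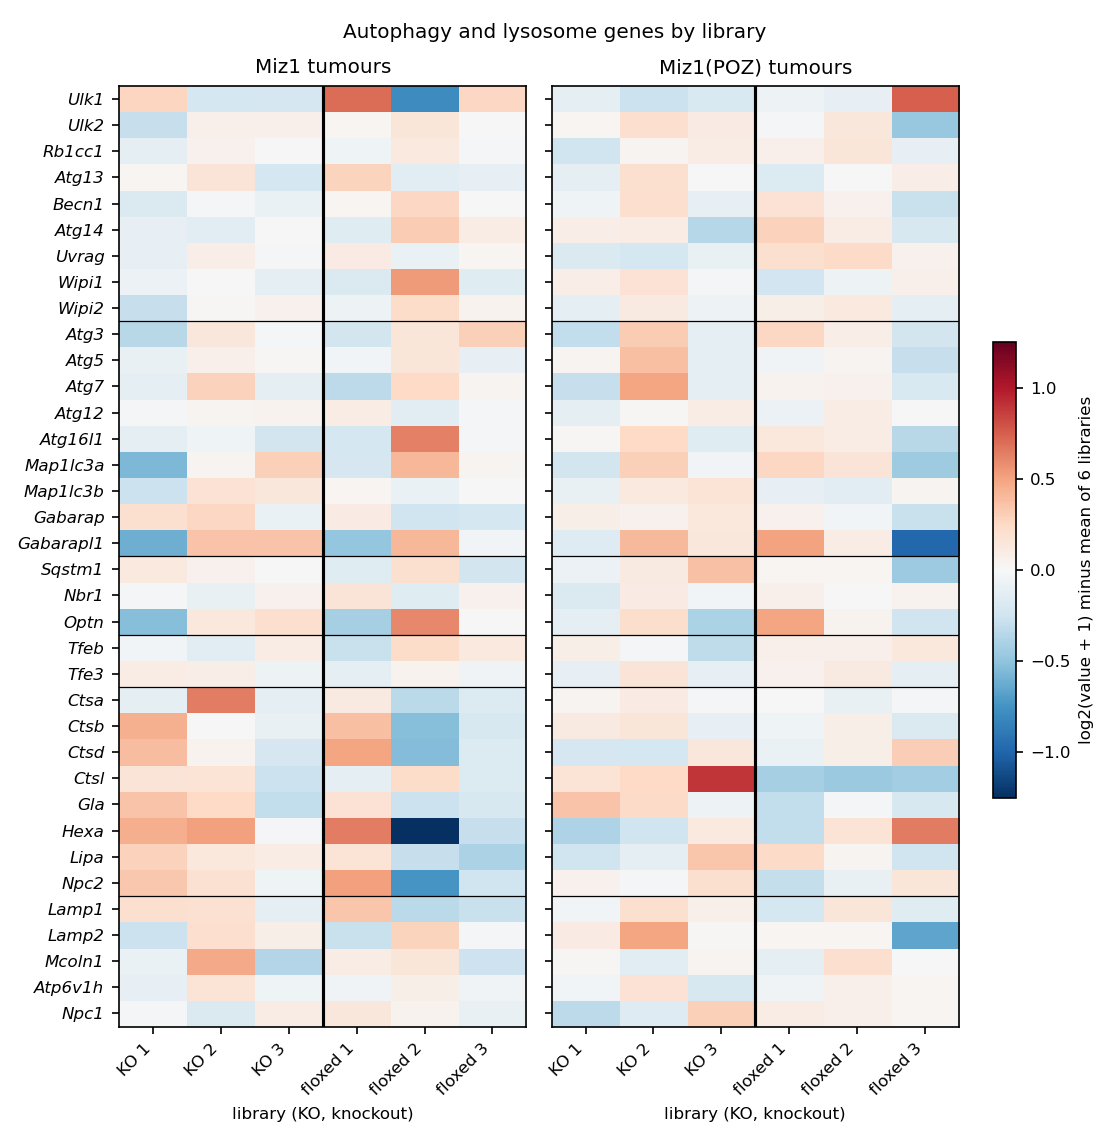
Level of each gene in each library as log2(value + 1) minus the mean of the 6 libraries of its table (red higher, blue lower), knockout libraries left of floxed ones. In Miz1 tumours floxed replicate 2 is low in Hexa and Npc2 and replicate 1 of both groups is low in Gabarapl1 and Optn; in Miz1(POZ) tumours floxed replicate 3 stands apart in Ulk1, Hexa, Gabarapl1 and Lamp2.

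A score for each library, the mean deviation of a group of genes from their means over the 6 libraries, shows the same on the log2 scale. For lysosome genes it was 0.16, 0.22 and -0.11 in Miz1 knockout tumours, against 0.20, -0.27 and -0.20 in floxed tumours. For autophagosome genes it was -0.15, 0.07 and 0.01 in knockout tumours, against -0.05, 0.13 and -0.0020 in floxed tumours. Replicate 1 of each group lay above 0 for lysosome genes and below 0 for autophagosome genes, and floxed replicate 2 was the reverse. The 10 macrophage markers had scores of 0.75, -0.05 and -0.21 in knockout tumours, against 0.56, -0.83 and -0.22 in floxed tumours. Their summed level was 20078, 8412 and 7914 normalised reads in knockout tumours, against 13881, 5133 and 7168 in floxed tumours, 9 of 10 markers were higher in the knockout (median log2 fold change 0.27), none passed the threshold, and none was at 0 in any library. Other marker lists were also mostly higher in the knockout: 6 of 6 for stellate cells (median log2 fold change 0.30), 4 of 4 for cholangiocytes (0.39), 4 of 5 for neutrophils (1.04), 5 of 6 for T and NK cells (0.32), 3 of 4 for B cells (0.27) and 4 of 5 for endothelium (0.13). Knockout replicate 1 held the highest score of the knockout libraries in each of these lists, with 2.23 for neutrophils, 1.84 for cholangiocytes, 0.99 for T and NK cells, 0.92 for stellate cells and 0.10 for endothelium. Knockout replicates 2 and 3 scored within the range of the floxed libraries in each list, B cells included. For cholangiocytes they scored -0.52 and -0.71, against -1.19, 0.27 and 0.30 in floxed tumours. Without knockout replicate 1 the log2 fold changes of Epcam, Krt7 and Krt19 (cholangiocytes) were negative. So were those of Col1a1, Col1a2, Lrat, Pdgfrb and Des (stellate cells). Those of Sox9 (cholangiocytes) and Acta2 (stellate cells) stayed positive with any library left out. Summed levels of stellate markers were 7876, 3485 and 3186 normalised reads in knockout tumours, against 3614, 3012 and 4474 in floxed tumours. The part of these markers in the lysosome values was not tested, and in whole tumour RNA more cells of a type and more RNA per cell cannot be told apart.

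**Figure D4:**
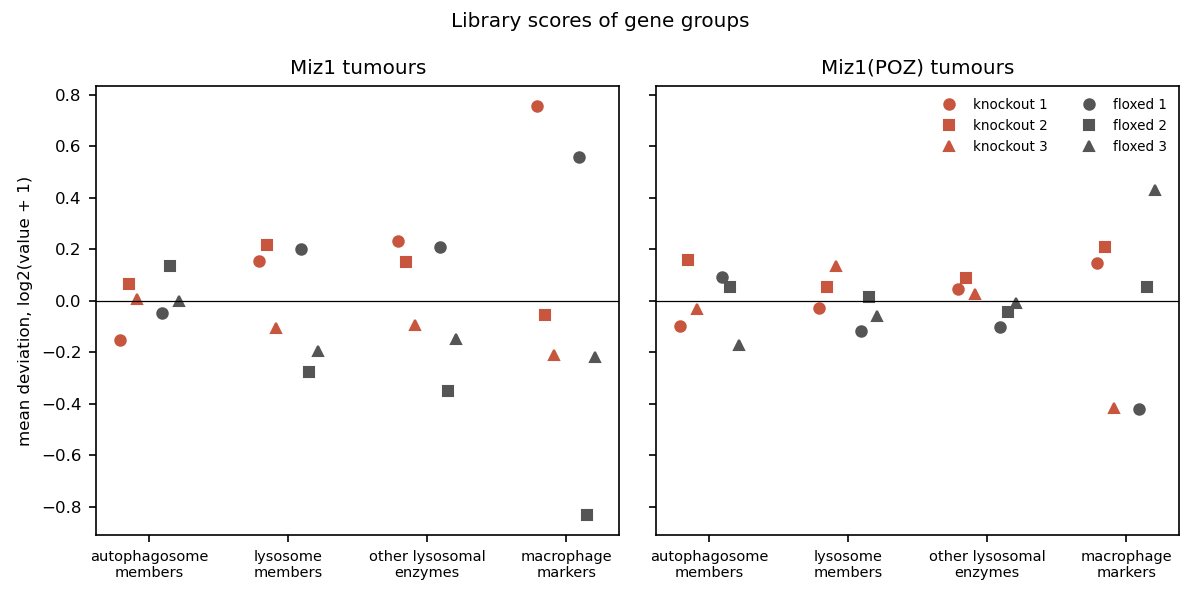
Score of each library, the mean deviation of log2(value + 1) from the mean of the 6 libraries, for autophagosome genes, lysosome genes, other lysosomal enzymes and macrophage markers, with knockout libraries in red left of floxed ones in grey and replicates 1, 2 and 3 as circle, square and triangle. In Miz1 tumours replicate 1 of each group is high and floxed replicate 2 low in the lysosomal groups and in the macrophage markers. Knockout replicate 2 is high in lysosome genes (0.22) and other lysosomal enzymes (0.15) but not in macrophage markers (-0.05).

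The second comparison asked the same of Miz1(POZ) knockout and Miz1(POZ) floxed tumours. Again no member passed an adjusted p of 0.05 (limma, Benjamini-Hochberg over 11201 genes), and the adjusted test called 0 genes of all, with 976 at an unadjusted p under 0.05. The largest difference was a higher level of the cysteine protease gene Ctsl in knockout tumours, 1.89 times the floxed mean. Uvrag, a Beclin 1 partner that promotes autophagosome maturation, was lower, at 0.780 times the floxed mean. These were the 2 of 36 members with an unadjusted p under 0.05 (5.56%), 1 higher and 1 lower, against 8.71% of all genes (4.79% higher and 3.92% lower). Groups did not overlap for 4 of 36 members (11.1%), 2 higher and 2 lower, against 15.0% of all genes (8.68% higher and 6.32% lower). In all, 19 members were higher and 17 lower in the knockout (52.8% higher), against 55.7% higher of all genes.

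Ctsl, at chr13:64359337-64370890 on the minus strand, had 352, 371 and 583 FPKM in Miz1(POZ) knockout tumours, against 234, 226 and 230.4 FPKM in floxed tumours. Each knockout library lay above all floxed libraries, the floxed ones lay close together, and knockout replicate 3 was the highest. The means were 435 ± 128 FPKM in knockout tumours and 230 ± 3.92 FPKM in floxed tumours (SD, n = 3 each), and the log2 fold change was 0.88 (SE 0.23, 95% interval 0.33 to 1.42). The unadjusted p was 0.00673 and the adjusted p 0.393 (limma, Benjamini-Hochberg). Leaving out each library in turn gave log2 fold changes of 0.65 to 1.01, with unadjusted p of 0.00692 to 0.0258. The span overlaps an antisense gene, Gm47123, and a processed pseudogene, Gm49230.

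Uvrag, at chr7:98885021-99141141 on the minus strand, had 10.1, 9.88 and 10.9 FPKM in Miz1(POZ) knockout tumours, against 13.6, 13.9 and 12.1 FPKM in floxed tumours. The groups were separate and both were tight. The means were 10.3 ± 0.536 FPKM in knockout tumours and 13.2 ± 0.956 FPKM in floxed tumours (SD, n = 3 each), and the log2 fold change was -0.33 (SE 0.11, 95% interval -0.58 to -0.07). The unadjusted p was 0.0186 and the adjusted p 0.467 (limma, Benjamini-Hochberg). With each library left out the log2 fold change was -0.39 to -0.29 and the unadjusted p 0.0109 to 0.0725. The span holds 5 other annotated genes, none of them protein-coding.

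The other 2 members without overlap rested on narrower gaps. Ulk1 had 23.3, 20.9 and 22.1 FPKM in Miz1(POZ) knockout tumours, against 24.2, 23.7 and 43.3 FPKM in floxed tumours. Its log2 fold change of -0.39 (SE 0.24) was -0.11 without floxed replicate 3, which alone lay far above the rest. Gabarap had 112, 110.4 and 116 FPKM in knockout tumours, against 109.95, 103 and 87.3 FPKM in floxed tumours, with a log2 fold change of 0.17 (SE 0.15), and 0.08 without floxed replicate 3. The lowest knockout and the highest floxed library of Gabarap differed by less than 1 FPKM.

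**Figure D5:**
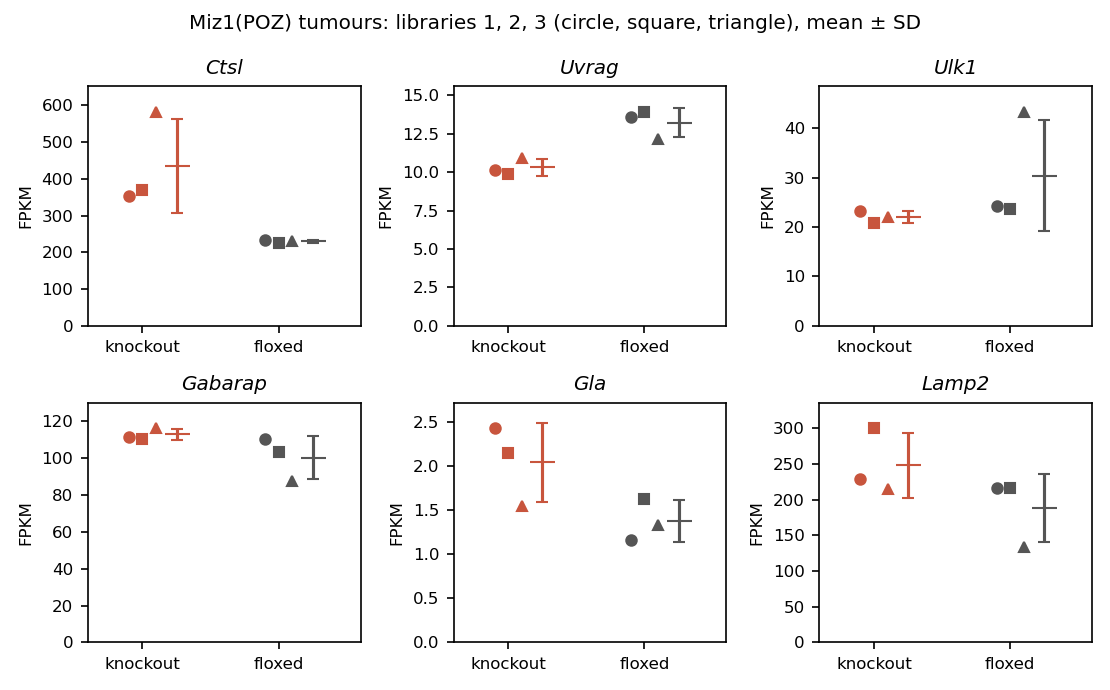
FPKM of 6 members in each Miz1(POZ) library, knockout in red left of floxed in grey, with mean ± SD (n = 3 each): the 4 members whose groups did not overlap (Ctsl, Uvrag, Ulk1 and Gabarap) and, chosen after their values were seen, Gla and Lamp2. Ctsl is higher and Uvrag lower in every knockout library, and the floxed mean of Ulk1 is raised by replicate 3.

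Elsewhere in the initiation and conjugation steps differences were small in Miz1(POZ) tumours. Becn1, which did not overlap in Miz1 tumours, had 24.5, 29.8 and 23.7 FPKM in knockout tumours, against 29.1, 26.5 and 20.8 FPKM in floxed tumours. The 9 conjugation and ATG8 genes had a median log2 fold change of 0.08, with 7 higher. It was -0.02 with 3 higher without floxed replicate 3, -0.02 with 4 higher without knockout replicate 2, and 0.18 with 9 higher without knockout replicate 1. Gabarapl1 had 105, 156 and 129 FPKM in knockout tumours, against 167, 125 and 59.0 FPKM in floxed tumours, so that both extremes were floxed. Its log2 fold change was 0.26, and -0.17 without floxed replicate 3. Among receptors, Sqstm1 had 163, 185 and 221 FPKM in knockout tumours, against 174, 175 and 125 FPKM in floxed tumours, with a log2 fold change of 0.27 (SE 0.21) that was 0.11 without floxed replicate 3 and -0.0030 without both libraries of replicate number 3. Optn had 32.5, 41.0 and 26.6 FPKM in knockout tumours, against 49.9, 36.2 and 29.6 FPKM in floxed tumours, with a log2 fold change of -0.19, and -0.36 without floxed replicate 3.

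The lysosome genes were divided in Miz1(POZ) tumours, with 7 of 13 higher and 6 lower (median log2 fold change 0.08), and the median was 0.0055 under quantile normalisation. Gla, deficient in Fabry disease, had 2.43, 2.15 and 1.55 FPKM in knockout tumours, against 1.16, 1.63 and 1.33 FPKM in floxed tumours (log2 fold change 0.35, SE 0.16). Only knockout replicate 3 fell among the floxed libraries. Lamp2 had 229, 300.1 and 215 FPKM in knockout tumours, against 216, 216 and 134 FPKM in floxed tumours (0.41, SE 0.25). Floxed replicate 3 was the lowest of all for Lamp2, and the other floxed libraries lay level with knockout replicate 3; without floxed replicate 3 the log2 fold change was 0.18. Hexa had 21.8, 23.9 and 31.4 FPKM in knockout tumours, against 23.0, 32.4 and 45.4 FPKM in floxed tumours (-0.34, SE 0.26, and -0.10 without floxed replicate 3), so its sign was opposite to that in Miz1 tumours. Ctsd, an aspartic protease, had 161, 159.8 and 206 FPKM in knockout tumours, against 175, 196 and 230.2 FPKM in floxed tumours (-0.19, and -0.09 without floxed replicate 3). The remaining lysosome genes had log2 fold changes of -0.13 to 0.16.

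Marker lists were read beside Ctsl in Miz1(POZ) tumours too. Of the 9 of 10 macrophage markers that passed the filter, 7 were higher in the knockout (median log2 fold change 0.08), and none was at 0 in any library. Their summed level was 199, 209.6 and 127 FPKM in knockout tumours, against 124, 179.8 and 222 FPKM in floxed tumours. Marco, the 1 macrophage marker with an unadjusted p under 0.05 (limma), was lower in the knockout (log2 fold change -1.20, SE 0.47). Stellate markers, 2 of 6 higher in the knockout (median -0.15), had scores of -0.20, -0.31 and 0.27 in knockout tumours, against 0.06, -0.01 and 0.19 in floxed tumours. Endothelial markers, 1 of 5 higher (median -0.13), had scores of -0.25, -0.26 and 0.25 in knockout tumours, against -0.02, -0.02 and 0.30 in floxed tumours. Hepatocyte markers, 1 of 8 higher (median -0.16), scored -0.13, -0.20 and 0.14 in knockout tumours, against -0.12, 0.09 and 0.22 in floxed tumours. Neutrophil markers, 2 of 2 tested higher (median 1.14), scored 1.41, 0.73 and -0.43 in knockout tumours, against -0.91, -1.54 and 0.75 in floxed tumours. Only these 2 of the 6 listed, S100a8 and S100a9, passed the filter, and S100a8 was at 0 in floxed replicate 2. Knockout replicate 3, which had the most Ctsl, was thus the highest knockout library in the stellate, endothelial and hepatocyte lists. It was the lowest in the macrophage and neutrophil lists. The part of these lists in the Ctsl values was not tested.

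The 2 transcription factors differed little. Tfeb had 271, 253 and 297 normalised reads in Miz1 knockout tumours, against 229, 326 and 302 in floxed tumours. In Miz1(POZ) knockout tumours it had 3.60, 3.34 and 2.50 FPKM, against 3.58, 3.56 and 3.80 FPKM in floxed tumours, where knockout replicate 3 was the lowest. Tfe3 had log2 fold changes of 0.07 (SE 0.12) in Miz1 tumours and -0.03 (SE 0.12) in Miz1(POZ) tumours.

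A wider list of 109 other genes of the pathway gave the setting. None passed the adjusted threshold in either table (limma, Benjamini-Hochberg). In Miz1 tumours 77 were higher and 32 lower in the knockout: 29 of 36 other lysosomal enzymes were higher (median log2 fold change 0.20) and 25 of 30 other genes of the lysosomal membrane and its proton pump (0.20), while 16 of 35 other autophagy genes were higher (-0.04). Their lysosomal enzymes had scores of 0.23, 0.15 and -0.09 in knockout tumours, against 0.21, -0.35 and -0.15 in floxed tumours. Floxed replicate 1 was the highest and floxed replicate 2 the lowest of the floxed libraries. The macrophage, hepatocyte, neutrophil, B cell and endothelial markers shared this order, and the stellate, cholangiocyte and T and NK cell markers did not. Hepatocyte markers scored -0.04, 0.09 and -0.09 in Miz1 knockout tumours, against 0.42, -0.40 and 0.03 in floxed tumours. In Miz1(POZ) tumours 108 genes of the wider list could be tested, with 68 higher and 40 lower. Of these, 15 had an unadjusted p under 0.05 (13.9%), 12 of them higher, against 8.71% of all genes. Groups did not overlap for 25 of the 108 (23.1%), against 15.0% of all genes. Of 35 other lysosomal enzymes, 24 were higher and 11 lower (median log2 fold change 0.11). An unadjusted p under 0.05 (limma) was held by 22.9% of them, 7 higher and 1 lower. The share was 8.57% of 35 other autophagy genes and 6.67% of 30 other membrane and proton pump genes. Groups did not overlap for 31.4%, 14.3% and 26.7% of these 3 classes, in that order.

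The 3 other genes of smallest p in each table were named by rule. In Miz1 tumours Rragd, a Rag GTPase through which the mTORC1 kinase is held at the lysosome and which is itself a target of TFEB, had 1449.6, 845 and 384 normalised reads in knockout tumours, against 401, 108 and 215 in floxed tumours. Its log2 fold change was 1.88 (SE 0.63), with an unadjusted p of 0.0219 and an adjusted p of 0.9998 (limma, Benjamini-Hochberg), and the groups overlapped. The mitophagy receptor gene Bnip3 had a log2 fold change of -0.46 (SE 0.22) and the sialidase gene Neu1 one of 0.41 (SE 0.21), both with overlap.

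In Miz1(POZ) tumours Fnip2, which encodes a partner of the folliculin protein that acts on Rag GTPases, had 8.56, 8.89 and 8.40 FPKM in knockout tumours, against 12.3, 12.3 and 13.6 FPKM in floxed tumours (log2 fold change -0.51, SE 0.10, adjusted p 0.348 by limma with Benjamini-Hochberg adjustment). Ctsc, a cysteine protease that activates granule proteases, had 73.5, 45.8 and 76.7 FPKM in knockout tumours, against 36.2, 33.4 and 29.4 FPKM in floxed tumours (0.93, SE 0.22, adjusted p 0.371). Gm2a, the activator protein for ganglioside breakdown by beta-hexosaminidase, had 33.6, 34.9 and 37.3 FPKM in knockout tumours, against 44.3, 53.3 and 54.0 FPKM in floxed tumours (-0.50, SE 0.13, adjusted p 0.394). In all 3 genes every knockout library lay on one side of every floxed library.

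Set side by side, 12 members were higher and 10 lower in both knockouts, and 14 had opposite signs. The share with the same sign was 61.1%, against 54.0% of the 10844 genes tested in both tables. The tables share no samples and differ in unit, so the difference between the knockouts was not tested. Ctsl had a log2 fold change of 0.88 in Miz1(POZ) tumours and 0.04 in Miz1 tumours, and Uvrag had -0.33 in Miz1(POZ) tumours and -0.03 in Miz1 tumours.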

How the data were processed

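Liver tumour RNA was prepared with an Illumina TruSeq kit from 1 ug of RNA, per the labels' protocols. The submitters' processing notes list the build mm10, DESeq2 1.16.1 and edgeR 3.18.1, RSEM 1.1.17, Bowtie2 2.2.6 and Trimmomatic 0.36, with no link from tool to table. The Miz1 values were deposited as a signal, read counts divided by 1 size factor per library. In all 6 columns 100% of values above 0 were whole reads within 0.01 read. Reads were recovered for 5 columns and not for floxed replicate 3, where 1 read was worth 1.01, close to 1. The Miz1(POZ) values were deposited by the authors as FPKM, with depth unknown. Of the Miz1 values, 4 entries that name no gene, one of them for multimapping reads, held 38.0% to 50.8% of each column and were left out. The share was 38.0%, 42.5% and 43.7% in knockout replicates 1, 2 and 3, and 39.1%, 50.8% and 45.8% in floxed ones.

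Each table was fitted with limma 3.58.1 (R 4.3.3, moderated with a trend) on log2(value + 1), for genes with a mean of at least 1, with Benjamini-Hochberg adjustment over all genes and a threshold of 0.05. Fold changes on that scale understate the change of low genes. edgeR 4.0.16 quasi-likelihood was run on the recovered reads of 5 Miz1 libraries. Deviations of same-numbered Miz1 libraries from their group means correlated at 0.489, 0.339 and 0.118 for numbers 1, 2 and 3. Knockout replicate 3 correlated more with floxed replicate 2 (0.2823), and the labels do not say what the numbers mean. Pairing by number is thus an assumption, weakest for number 3, and a fit with the replicate block was compared. In the Miz1(POZ) table the values were -0.093, 0.2295 and 0.1747, and knockout replicate 2 correlated more with floxed replicate 1 (0.2495). Alternatives were another pseudocount (10 and 0.1), no filter, a mean of at least 10, quantile and median-ratio scaling, robust moderation, unannotated loci left out and each library left out; dropping the 2 libraries that share a number was chosen after seeing the data. The 36 members and all lists were chosen with earlier results of these data known. Beyond the members, Zbtb17, the 3 other pathway genes of smallest unadjusted p in each table and marker genes are named. Rubcn and Adgre1 were matched by older symbols. Promoter sequences are from RefSeq, GRCm38.p6, and gene spans from the GENCODE annotation of the same build. Spans of 10 members overlap a protein-coding gene.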

Additional observations from a re-analysis of the deposited data

How the results depend on the processing

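No member passed the adjusted threshold under any alternative that was run, in either table. Over all genes, the Miz1 table gave 0 calls under each alternative. The Miz1(POZ) table gave 0 except for 1 with a mean of at least 10, 0 to 4 with a library left out (1, 2 and 4 without floxed replicates 1, 2 and 3), and 2 and 57 without both libraries of replicate numbers 2 and 3; the cause was not tested. With the replicate block the Miz1 medians stayed at -0.04 for autophagosome and 0.18 for lysosome genes, and the Miz1(POZ) medians at 0.03 and 0.08, since the block leaves fold changes of a balanced design as they are; the block called 0 genes and changed no member call, with 1150 and 1076 genes at an unadjusted p under 0.05. With a library left out, the Miz1 medians ranged from -0.12 to 0.02 (autophagosome, 0.02 without knockout replicate 1) and from 0.07 to 0.39 (lysosome), and those of Miz1(POZ) from -0.07 to 0.09 and from 0.04 to 0.10. The Miz1 lysosome median was 0.01 without both libraries of number 2 and 0.07 by edgeR, which lacks floxed replicate 3. The Miz1(POZ) lysosome median was 0.0055 under quantile normalisation against 0.08. The sign of the fold change was kept under every alternative by 14 of 36 members in Miz1 tumours and 17 of 36 in Miz1(POZ) tumours. With 3 libraries per group, differences within the spread shown were not detectable, which does not show that they are absent.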
